A study of Gallus gallus with 8 samples.

Results

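GAP43, STMN2, TUBB3, NEFL, ELAVL4, SYT1 and ISL1 are 7 genes used as markers of neurons, and their RNA levels were described in the skin of the back of chicken embryos. They were taken by name from 14642 genes with a measured level. Levels were RPKM, that is reads scaled by transcript length and by the number of mapped reads. Of the 7 genes, 6 reached 1 RPKM in 2 or more libraries and were among the 11155 genes tested, while ISL1 did not and is given by its values. The study compared skin before feather elongation (H&H 31, embryonic day 7) with skin in elongation (H&H 35, embryonic day 9), and it separated epithelium from mesenchyme in calcium-magnesium free saline before RNA extraction. The 4 groups are therefore epithelium and mesenchyme, each at H&H 31 and at H&H 35, all from dorsal skin of chicken embryos with no treatment or genetic change named. Each group has 2 libraries, called biological replicates in the methods and batch I and batch II in the labels. How many embryos went into a library is not stated, so the p-values measure the spread between these libraries only. Below, libraries are named by their batch, for example H&H 35 mesenchyme I.

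Feathered skin receives sensory axons from the dorsal root ganglia and sympathetic axons from the trunk ganglia, and the cell bodies of both lie outside the skin. Skin dissected from the embryo thus can hold axons and the Schwann cells that wrap them, but few or no neuron nuclei. In images of this skin, the study found neurites, the processes of neurons, to be very rare. It saw them only in the mesenchyme below feather buds, at the time of elongation. A growing axon is built on neuronal tubulin and neurofilaments, its growth cone carries proteins such as GAP43 and stathmins, and its terminals release transmitter through synaptotagmins. Several of these genes are also transcribed outside neurons during development, and skin has a second neural crest derivative, the melanocyte.

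The libraries held between 22050712 and 33620383 alignments. The summed RPKM of 7 epithelial markers was 789 to 1908 in the epithelium libraries and 14 to 32.5 in the mesenchyme libraries, and that of 7 mesenchymal markers was 713 to 988 in epithelium and 3275 to 3741 in mesenchyme. Within the mesenchymal sum, COL1A2 and DCN were at least 369 and 271 RPKM in every library. DCN alone was higher in epithelium at H&H 31, by 1.11-fold in mean RPKM. TWIST1 and PDGFRA were 851-fold and 135-fold higher in mesenchyme at that stage, so the sum does not measure mixing of the tissues. Markers of other cell types also followed the groups. The sum of 12 melanocyte genes was 315 to 512 in epithelium and 23.3 to 32.2 in mesenchyme, and that of 7 endothelial genes was 0.654 to 1.40 in epithelium and 87.2 to 151 in mesenchyme. One library stood apart, since 12 striated muscle genes summed to 32.0 RPKM in H&H 35 mesenchyme I, against 3.0 in H&H 35 mesenchyme II and at most 3.95 elsewhere. The part of these cell types in the results below was not tested. Some results that use H&H 35 mesenchyme I are also given without it, and the others include it.

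The label "neuron and Schwann cell genes" was checked against defining markers and held only in part. None of the 7 genes is a Schwann cell marker by definition. Among neuronal markers, SNAP25, a core protein of synaptic vesicle fusion, did not exceed 0.221 RPKM in any of the 8 libraries, the vesicle proteins SYN1 and VAMP2 did not exceed 0.909 and 0.112, the axonal adhesion protein CNTN2 did not exceed 0.10, and the neuronal transcription factor NEUROD1 did not exceed 0.0350. Of the lists of neuronal genes in the table, 3 of 16 genes for cytoskeleton and growth cone, 5 of 13 for the synaptic vesicle, 10 of 15 RNA-binding and transcription factors and 9 of 17 neuron subtype genes stayed under 1 RPKM in all 8 libraries. The 7 genes are therefore called by their names below and not taken as a measure of neurons. In bulk tissue, fewer cells of a type and less RNA per cell cannot be told apart.

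The 7 genes did not share a single pattern, and their highest group differed. STMN2, TUBB3 and NEFL had their highest mean in H&H 31 epithelium, GAP43 and ELAVL4 in H&H 31 mesenchyme, and SYT1 and ISL1 in H&H 35 mesenchyme. Their levels also covered a wide range. Mean RPKM in the highest group was 168 for TUBB3, 14.4 for NEFL, 11.8 for GAP43, 8.34 for ELAVL4, 4.89 for SYT1, 2.41 for STMN2 and 0.301 for ISL1.

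**Figure D1:**
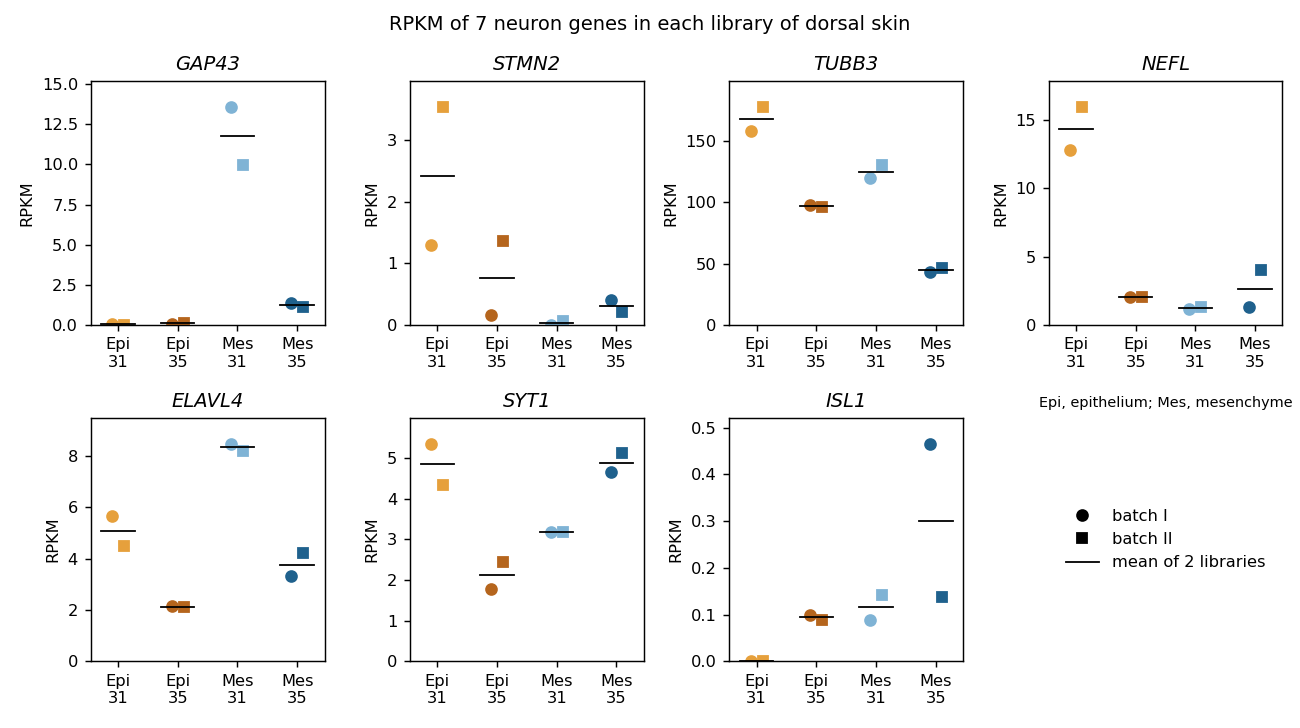
RPKM (y axis, linear, from 0, its own range in each panel) of 7 genes in each of the 8 libraries, by tissue and stage (x axis, Epi for epithelium and Mes for mesenchyme at H&H 31 or 35). Circles are batch I, squares batch II and lines the mean of 2 libraries; GAP43 stood at 13.6 and 9.94 in H&H 31 mesenchyme and NEFL at 12.8 and 16 in H&H 31 epithelium, in each case above the other 6 libraries.

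GAP43 encodes a membrane-bound phosphoprotein of growth cones that is also made by some Schwann cells. It stood at 13.6 and 9.94 RPKM in H&H 31 mesenchyme and at 1.33 and 1.13 RPKM in H&H 35 mesenchyme. Epithelium gave 0.032 and 0 RPKM at H&H 31 and 0.0636 and 0.104 RPKM at H&H 35. Every mesenchyme library was thus above every epithelium library, and both H&H 31 mesenchyme libraries were above both of H&H 35.

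In reads recovered from the RPKM steps, these GAP43 levels were 431 and 394 reads in H&H 31 mesenchyme and 62 and 53 reads in H&H 35 mesenchyme. The 95% exact Poisson intervals, which cover counting error only, were 391 to 474 and 356 to 435 reads at H&H 31 and 47.5 to 79.5 and 39.7 to 69.3 reads at H&H 35. Epithelium held 1, 0, 3 and 4 reads in its 4 libraries, and the 0 of H&H 31 epithelium II allows up to 3 reads, or 0.0785 RPKM. GAP43 RNA in epithelium was therefore at the limit of detection.

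Between the stages GAP43 fell in mesenchyme, where mean RPKM was 9.54-fold lower at H&H 35. On the log2(RPKM + 1) scale, which understates changes of low genes, the change was -2.50 ± 0.15 (SE, n = 2 libraries a group; limma, adjusted p = 6.33e-06). The level in mesenchyme exceeded that in epithelium by 3.64 on this scale at H&H 31 (adjusted p = 7.12e-08) and by 1.04 at H&H 35 (adjusted p = 0.000248). GAP43 reached 1 RPKM in the 4 mesenchyme libraries alone, so the level minimum favoured these tissue differences and they are a description. The change of 0.09 in epithelium had an adjusted p of 0.687. The test of the stage change in mesenchyme against that in epithelium gave -2.59 (adjusted p = 3.91e-05), which restates the fall in mesenchyme, since GAP43 was at the limit of detection in epithelium.

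STMN2, a stathmin that binds tubulin and destabilizes microtubules in growth cones, had the reverse distribution over the tissues at H&H 31. Its RPKM was 1.29 and 3.54 in H&H 31 epithelium and 0.151 and 1.36 in H&H 35 epithelium. In mesenchyme it was 0 and 0.0598 at H&H 31 and 0.408 and 0.203 at H&H 35. Both H&H 31 epithelium libraries were above all 4 mesenchyme libraries, while the epithelium libraries of the stages overlapped. The tissues overlapped at H&H 35, where epithelium I was below both mesenchyme libraries.

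The STMN2 levels came from few reads, which in epithelium were 17 and 57 at H&H 31 and 3 and 22 at H&H 35, and in mesenchyme 0 and 1 at H&H 31 and 8 and 4 at H&H 35. The 0 allows up to 0.224 RPKM. The Poisson intervals of the H&H 31 epithelium libraries, 9.90 to 27.2 and 43.2 to 73.9 reads, did not overlap, and neither did those of the H&H 35 epithelium libraries, 0.619 to 8.77 and 13.8 to 33.3 reads. In both stages batch II held more STMN2 reads than batch I in epithelium.

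At H&H 31 STMN2 was lower in mesenchyme by 1.65 on the log2 scale (limma, log2 difference -1.65, adjusted p = 0.00382), which did not hold when the variance of the gene alone was used (adjusted p = 0.0616). STMN2 reached 1 RPKM in 3 libraries, all of epithelium, so the level minimum favoured this tissue difference and it is a description. The stage difference in epithelium was -0.97 ± 0.36 (SE) with an adjusted p of 0.0691, and the difference between the tissues in stage change was 1.31 with an adjusted p of 0.0693. Both passed the threshold with a block for the batch (adjusted p = 0.0395 and adjusted p = 0.0401). Each estimate depended on which replicate was kept. Removing H&H 31 epithelium I gave log2 differences of -1.46 and 1.80, and removing H&H 35 epithelium II gave -1.49 and 1.82. Over all removals of a single library, the stage difference in epithelium ranged from -1.49 to -0.45. The difference between the tissues in stage change ranged from 0.79 to 1.82. The values at H&H 35, -0.34 between the tissues (adjusted p = 0.432), and the stage change of 0.34 in mesenchyme (adjusted p = 0.498) did not pass.

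TUBB3 encodes the beta-tubulin typical of neurons and was the most abundant of the 7 genes per length of transcript. It stood at 159 and 178 RPKM in H&H 31 epithelium and 120 and 131 RPKM in H&H 31 mesenchyme. By H&H 35 the levels were 98.1 and 96.3 RPKM in epithelium and 42.8 and 46.2 RPKM in mesenchyme. No 2 groups overlapped, with both H&H 31 groups above both H&H 35 groups and epithelium above mesenchyme at each stage.

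TUBB3 fell in both tissues. The log2 change was -0.78 ± 0.08 (SE) in epithelium (limma, adjusted p = 0.00017) and -1.47 in mesenchyme (adjusted p = 4.95e-06), or 1.73-fold and 2.81-fold in mean RPKM. The fall in mesenchyme was the steeper one by -0.69 (adjusted p = 0.00198). Mesenchyme was below epithelium by a log2 difference of -0.42 before elongation (adjusted p = 0.00219) and of -1.11 during it (adjusted p = 3.63e-06). Beta-tubulin genes are alike in sequence and how shared reads were assigned is not stated, so these levels are uncertain in that respect.

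NEFL encodes the light subunit of neurofilaments, the intermediate filaments of axons. Its RPKM was 12.8 and 16 in H&H 31 epithelium and 2.02 and 2.01 in H&H 35 epithelium. In mesenchyme it was 1.15 and 1.27 at H&H 31 and 1.30 and 3.98 at H&H 35. The H&H 31 epithelium libraries lay above the other 6, and of these 6 the highest was H&H 35 mesenchyme II.

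NEFL fell 7.13-fold in mean RPKM between the stages in epithelium, with a log2 change of -2.34 ± 0.30 (SE; limma, adjusted p = 0.000409). At H&H 31 its mean RPKM in epithelium was 11.9-fold that in mesenchyme (log2 difference -2.79, mesenchyme minus epithelium, adjusted p = 3.63e-05). At H&H 35 that difference was 0.17 (adjusted p = 0.641). The stage changes of the tissues differed by 2.96 (adjusted p = 0.000653).

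In mesenchyme the stage difference of NEFL was 0.62 (limma, adjusted p = 0.129), and it turned on a single library. The recovered NEFL reads were 83 in H&H 35 mesenchyme I and 256 in H&H 35 mesenchyme II, with Poisson intervals of 66.1 to 103 and 226 to 289 reads that did not overlap. Without H&H 35 mesenchyme I, the library with muscle RNA, the difference was 1.18 and passed the test (adjusted p = 0.00122), and the difference between the tissues at H&H 35 was 0.72 and passed as well (adjusted p = 0.00422). Without H&H 35 mesenchyme II these differences were 0.06 (adjusted p = 0.799) and -0.39 (adjusted p = 0.0595).

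The medium subunit, NEFM, followed NEFL over the libraries. In epithelium NEFM was 26.0 and 33 RPKM at H&H 31 and 4.99 and 5.49 RPKM at H&H 35, and in mesenchyme it was 0.897 and 0.840 RPKM at H&H 31 and 0.187 and 3.93 RPKM at H&H 35. Both genes were thus high in H&H 31 epithelium and higher in H&H 35 mesenchyme II than in H&H 35 mesenchyme I. Pearson's r of the log2 levels was 0.933 over the 8 libraries, given as a description because libraries of a group are not independent of their group. NEFM fell in epithelium (limma, log2 change -2.28, adjusted p = 0.00802), which did not hold when the variance of the gene alone was used (adjusted p = 0.102), with a pseudocount of 0.1 (adjusted p = 0.0715) or without H&H 31 epithelium II (adjusted p = 0.05). At H&H 31 the NEFM level was lower in mesenchyme than in epithelium, with a log2 difference of -4.02 (adjusted p = 0.000119). At H&H 35 this difference was -1.37 (adjusted p = 0.0392), a call lost under 13 alternatives (adjusted p from 0.0515 to 0.183), among them leaving out H&H 35 mesenchyme I, which brought it to -0.34 (adjusted p = 0.103), while it was -2.39 without H&H 35 mesenchyme II (adjusted p = 6.69e-06).

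**Figure D2:**
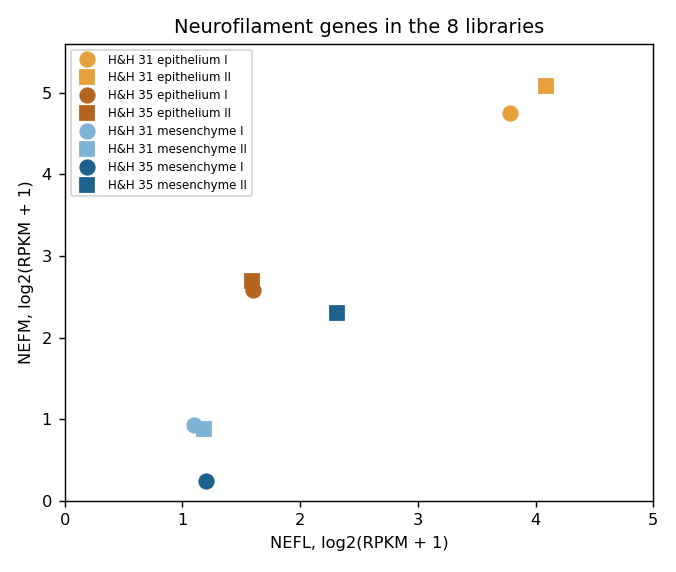
NEFM against NEFL as log2(RPKM + 1), 1 point a library, coloured by group, circles for batch I and squares for batch II. The H&H 31 epithelium libraries lie at the upper right, and the H&H 35 mesenchyme libraries lie apart from each other, with NEFM at 0.187 and 3.93 RPKM.

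ELAVL4 (HuD) encodes an RNA-binding protein that stabilizes neuronal mRNAs. It stood at 5.68 and 4.5 RPKM in H&H 31 epithelium and 8.48 and 8.20 RPKM in H&H 31 mesenchyme. By H&H 35 the levels were 2.16 and 2.11 RPKM in epithelium and 3.32 and 4.22 RPKM in mesenchyme. The groups did not overlap, with mesenchyme above epithelium at each stage and H&H 31 above H&H 35 in each tissue.

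ELAVL4 fell in both tissues, by a log2 change of -0.95 ± 0.14 (SE) in epithelium (limma, adjusted p = 0.00085) and -0.98 in mesenchyme (adjusted p = 0.00067). The stage changes differed by -0.02 ± 0.19 between the tissues (adjusted p = 0.934), and the sign of this small difference was positive under 6 of the alternatives. ELAVL4 was higher in mesenchyme by 0.62 at H&H 31 (adjusted p = 0.00382) and by 0.60 at H&H 35 (adjusted p = 0.00397). The latter call was lost with quantile normalization (log2 difference 0.35, adjusted p = 0.0625).

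SYT1, the calcium sensor of fast transmitter release, changed in opposite directions in the tissues. In epithelium it went from 5.35 and 4.35 RPKM at H&H 31 to 1.78 and 2.45 RPKM at H&H 35. In mesenchyme it went from 3.18 and 3.19 RPKM to 4.66 and 5.12 RPKM. H&H 31 epithelium and H&H 35 mesenchyme overlapped at the top, and H&H 35 epithelium lay below the rest.

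SYT1 fell in epithelium by a log2 change of -0.91 ± 0.14 (SE; limma, adjusted p = 0.00129) and rose in mesenchyme by 0.49 (adjusted p = 0.0239). The test of the difference between these changes gave 1.40 (adjusted p = 0.000728). Between the tissues SYT1 was lower in mesenchyme by a log2 difference of -0.48 at H&H 31 (adjusted p = 0.0179) and then higher in mesenchyme by 0.93 at H&H 35 (adjusted p = 0.000362). The rise in mesenchyme was lost when the variance of the gene alone was used (adjusted p = 0.0795), and also without either H&H 31 mesenchyme library (adjusted p = 0.101 for each) and without H&H 35 mesenchyme II (adjusted p = 0.0909), while the tissue difference at H&H 31 was lost with that variance (adjusted p = 0.0600), leaving out H&H 31 epithelium I (log2 difference -0.35, adjusted p = 0.131) or leaving out either H&H 31 mesenchyme library (adjusted p = 0.0774 and adjusted p = 0.0747).

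ISL1 encodes a transcription factor of sensory and motor neurons that acts in the nucleus. It was listed at 0 in both H&H 31 epithelium libraries. Its RPKM was 0.0998 and 0.0882 in epithelium at H&H 35, while mesenchyme gave 0.0889 and 0.142 at H&H 31 and 0.465 and 0.137 at H&H 35. Only H&H 35 mesenchyme I stood out, the library in which muscle genes were also high. When genes were not filtered by level, no comparison of ISL1 passed the test (limma, adjusted p between 0.114 and 0.733, unadjusted p between 0.0715 and 0.621).

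**Figure D3:**
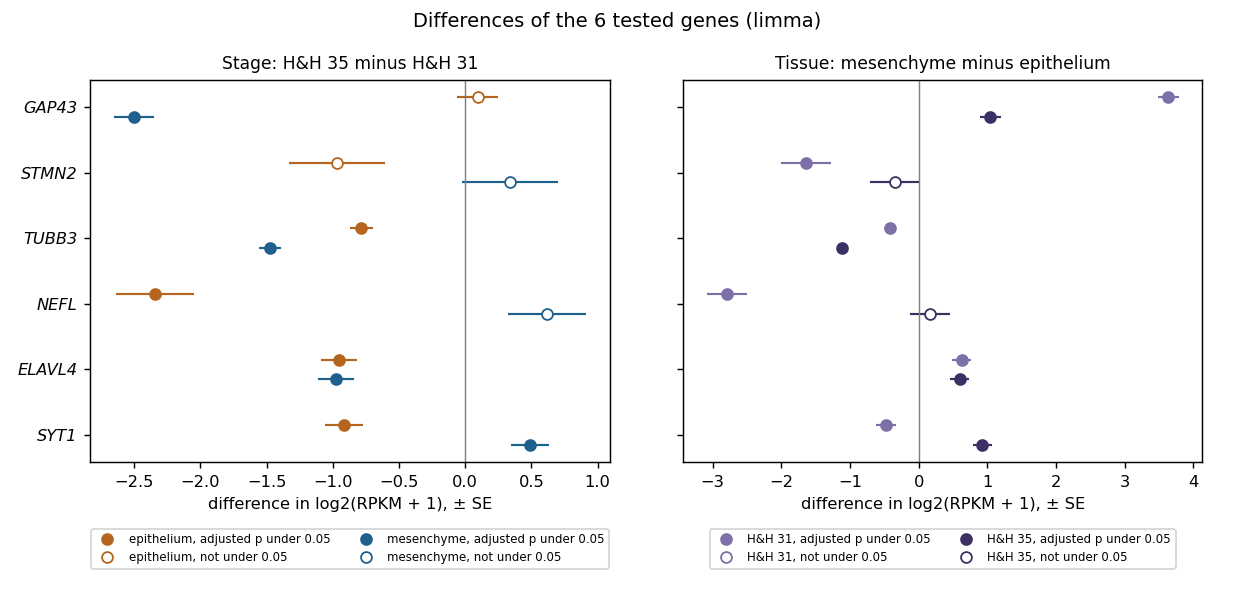
Differences in log2(RPKM + 1) with their SE (x axis) for the 6 tested genes (y axis), for stage in each tissue on the left and for tissue at each stage on the right. Filled points had an adjusted p under 0.05 in limma, and open points did not; GAP43 in mesenchyme (-2.50) and NEFL in epithelium (-2.34) had the largest stage changes.

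Counted together, 4 of the 6 tested genes fell in epithelium (TUBB3, NEFL, ELAVL4 and SYT1) and 0 rose, where 34.4% of all 11155 tested genes were called, 15.9% of them lower and 18.6% higher. In mesenchyme 3 fell (GAP43, TUBB3 and ELAVL4) and 1 rose (SYT1), where 39.8% of all genes were called, 21.6% lower and 18.2% higher. Between the tissues at H&H 31, GAP43 and ELAVL4 were higher in mesenchyme and STMN2, TUBB3, NEFL and SYT1 lower, so that 6 of 6 were called where 57.4% of all genes were, 29.7% higher and 27.7% lower. At H&H 35, GAP43, ELAVL4 and SYT1 were higher in mesenchyme and TUBB3 lower, 4 of 6 where 66.2% of all genes were called, 29.1% higher and 37.1% lower, so the share was that of the background. The difference in stage change was called for 4 of the 6, with NEFL and SYT1 positive and GAP43 and TUBB3 negative, where 42.4% of all genes were called, 19.4% positive and 23% negative. These counts cover 6 genes, of which GAP43 reached the level minimum through mesenchyme alone and STMN2 through epithelium alone. The comparisons share groups, so they are not independent of each other. Without H&H 35 mesenchyme I, the stage changes in mesenchyme were -2.57 for GAP43, -1.42 for TUBB3, -0.84 for ELAVL4 and 0.55 for SYT1. That of NEFL was then 1.18.

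Likeness was computed for the 6 tested genes only, between their pairs and against the other tested genes with a symbol. Over the 8 libraries, Pearson's r of log2(RPKM + 1) between pairs of the 6 tested genes ran from -0.66 for GAP43 and STMN2 to 0.80 for STMN2 and NEFL. Single genes of the rest of the table were closer, which is a property of picking the best of 10007 genes with a symbol over 8 libraries in 4 groups. The patterns most like GAP43 were those of USP13 (r = 0.997), ROBO3, an axon guidance receptor (r = 0.996), and PLS3, an actin-bundling protein (r = 0.9945). For STMN2 they were ASB13 and MYOF (both r = 0.960) and KCNAB1, a potassium channel subunit (r = 0.947). For NEFL they were FAM81A (r = 0.981), DPP10 (r = 0.980) and USP12 (r = 0.979). TUBB3 was followed most closely by TOM1L1 (r = 0.987), ELAVL4 by RAVER2 (r = 0.990) and SYT1 by ARL15 (r = 0.990).

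Genes of the axon cytoskeleton and growth cone were counted in a list of 13 tested genes. GAP43, STMN2, TUBB3 and NEFL are in this list, so its counts and medians repeat part of the results above. TUBB3 and NEFL are among its falls in epithelium, and GAP43 and TUBB3 among its falls in mesenchyme. In epithelium 0 rose and 5 fell, where 34.4% of all genes were called, and the median log2 change was -0.42 against 0.02 over all genes. In mesenchyme 2 rose and 3 fell, where 39.8% of all genes were called, with a median of 0.10 against -0.03. The mesenchyme counts include H&H 35 mesenchyme I, the library with muscle RNA. BASP1, a growth cone protein related in function to GAP43, fell in mesenchyme as GAP43 did (566 and 621 to 319 and 339 RPKM, limma, log2 change -0.85, adjusted p = 0.000102) but also fell in epithelium, from 291 and 304 to 216 and 230 RPKM (log2 change -0.42, adjusted p = 0.00496).

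The microtubule proteins DCX and MAP1B were higher in mesenchyme at both stages. DCX stood at 28.3 and 24.5 RPKM in H&H 31 mesenchyme and 1.67 and 1.09 in H&H 31 epithelium (limma, log2 difference 3.53, adjusted p = 4.39e-06). At H&H 35 it was 12.5 and 25.9 RPKM in mesenchyme, where the library with muscle RNA was the lower one. MAP1B was higher in mesenchyme by a log2 difference of 3.61 at H&H 31 (adjusted p = 5.89e-07) and one of 3.02 at H&H 35 (adjusted p = 1.91e-06). MAP2, a dendritic microtubule protein, was distributed the other way, with 10.5 and 10.7 RPKM in H&H 31 epithelium and 1.01 and 1.35 RPKM in H&H 31 mesenchyme (log2 difference -2.41, adjusted p = 8.11e-07). BASP1 and MAP2 were singled out after their values were seen.

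Of 8 tested genes of the synaptic vesicle, SYT1 included, each tissue had 1 that rose and 3 that fell, where 34.4% of all genes were called in epithelium and 39.8% in mesenchyme. Of the 3 falls in mesenchyme, that of CPLX2 (limma, adjusted p = 0.0435) was lost under 13 alternatives. Its log2 change was -0.57 without H&H 35 mesenchyme I. SYN3 and RAB3C reached 1 RPKM in a single group each, and a gene tested through the group where it is high had to differ. The median log2 change was 0.03 in each tissue, against 0.02 and -0.03 over all genes. SYT4, a synaptotagmin of secretory vesicles, fell in mesenchyme from 10.3 and 11.1 to 1.14 and 2.80 RPKM (limma, log2 change -2.03, adjusted p = 0.000234), while SYT1 rose there. SV2B, a vesicle membrane protein, fell in epithelium from 1.48 and 1.85 to 0.0266 and 0.0436 RPKM (log2 change -1.36, adjusted p = 0.000104). CPLX2, a complexin, was higher in mesenchyme at both stages (log2 difference 1.16, adjusted p = 0.00154, and 1.54, adjusted p = 0.000212).

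Only 4 of 15 neuronal RNA-binding and transcription factors in the table were tested, ELAVL4 among them, with 2 higher and 2 lower at H&H 35 in epithelium and 0 higher and 3 lower in mesenchyme, where 34.4% and 39.8% of all genes were called. The median log2 change was 0.37 in epithelium and -0.90 in mesenchyme, against 0.02 and -0.03 over all genes. RUNX3, a transcription factor of proprioceptive neurons that is also made in skeletal and blood cells, fell in mesenchyme from 19.8 and 22.7 to 8.54 and 9.39 RPKM (limma, log2 change -1.16, adjusted p = 0.00347; adjusted p = 0.0566 with the variance of the gene alone). In epithelium RUNX3 rose from 0.0818 and 0.0584 to 4.81 and 2.34 RPKM (log2 change 2.04, adjusted p = 0.000179). RUNX1 moved likewise, with log2 changes of -0.83 in mesenchyme (adjusted p = 0.00219) and 1.09 in epithelium (adjusted p = 0.000574). NOVA1, a splicing factor, was higher in mesenchyme by 1.25 at H&H 31 (adjusted p = 9.11e-06) and then by 1.78 at H&H 35 (adjusted p = 8.01e-07). The falls in epithelium were those of ELAVL4 and NOVA1, the latter by a log2 change of -0.34. That call of NOVA1 was lost under several alternatives. Among them were quantile normalization (limma, adjusted p = 0.0651), the variance of the gene alone (adjusted p = 0.0578) and only the libraries compared (adjusted p = 0.104).

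Of 17 genes that mark sensory, sympathetic or motor neurons, 5 were tested, with 0 higher and 2 lower in epithelium and 1 higher and 2 lower in mesenchyme, where 34.4% and 39.8% of all genes were called. RET reached 1 RPKM only in epithelium and TAC1 only in mesenchyme, both at H&H 31 alone, so the level minimum favoured their falls and the counts are a description. The median log2 change was 0.02 and -0.03, as over all genes. SLC18A2, the vesicular monoamine transporter, fell in mesenchyme from 17.7 and 15.7 to 3.26 and 1.70 RPKM (limma, log2 change -2.38, adjusted p = 6.63e-05). TAC1, the precursor of substance P, went from 3.03 and 2.55 RPKM in H&H 31 mesenchyme to 0 and 0.0257 (log2 change -1.90, adjusted p = 8.33e-06). TH and DBH, the enzymes that define sympathetic neurons, did not exceed 0.306 and 0.0225 RPKM in any library. RET, a receptor of the GDNF family, was at 5.70 and 2.82 RPKM in H&H 31 epithelium and fell to 0.503 and 0.843 RPKM (log2 change -1.60, adjusted p = 0.000921).

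NTRK3, the receptor of neurotrophin-3, did not pass the level minimum and was highest in the same library as ISL1. It was 2.39 RPKM in H&H 35 mesenchyme I, 0.920 in H&H 35 mesenchyme II and at most 0.282 in the other 6 libraries. NEFL and NEFM were lower in H&H 35 mesenchyme I than in its replicate and NTRK3 was higher, so these genes did not move together between the replicates. NTRK3 was singled out after its values were seen.

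**Figure D4:**
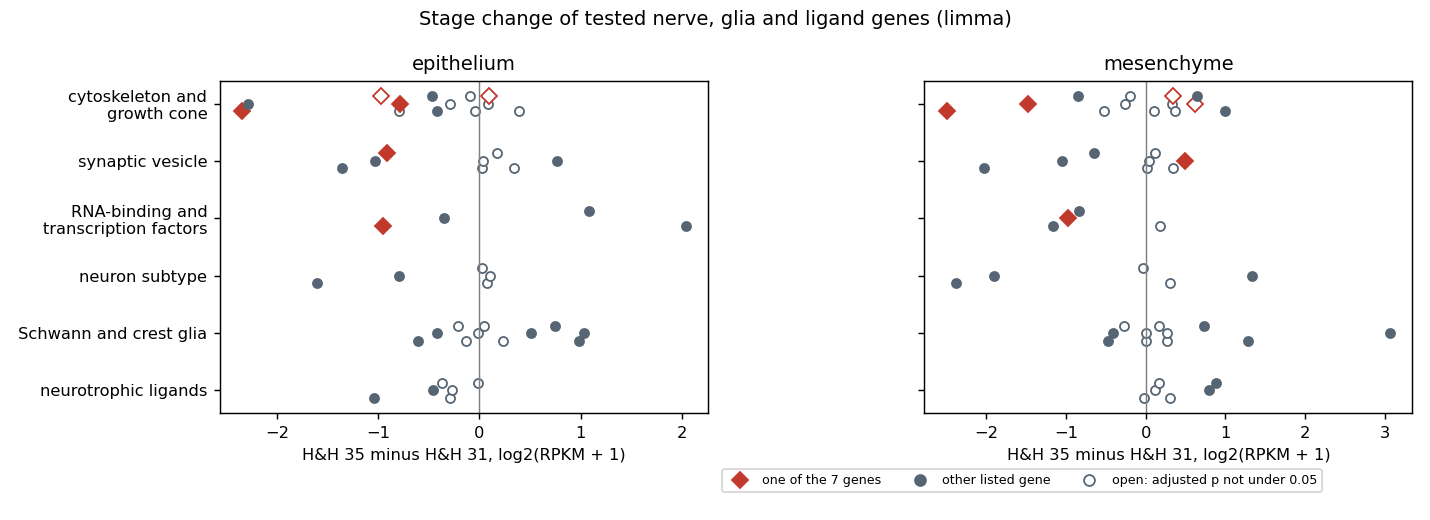
Stage change in log2(RPKM + 1) (x axis) of each tested gene of 6 lists (y axis, points offset for legibility) in epithelium (left) and mesenchyme (right). Diamonds are genes among the 7, circles other listed genes, and open symbols had an adjusted p not under 0.05 in limma. Of the 13 tested growth cone genes 5 fell and 0 rose in epithelium, where 34.4% of all tested genes were called. NGFR is the rightmost point in mesenchyme at 3.07.

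Schwann cell and crest glia genes were measured by 15 genes in the table, of which 11 were tested, and of these 4 were higher and 2 lower at H&H 35 in epithelium, and 3 higher and 2 lower in mesenchyme, where 34.4% and 39.8% of all genes were called. The median log2 change was 0.05 and 0.17, against 0.02 and -0.03 over all genes. MBP reached 1 RPKM in H&H 35 epithelium alone, so the level minimum favoured a rise of MBP there. Also in epithelium, the calls of PMP22 (higher) and FABP7 (lower) were lost under several alternatives. With the variance of the gene alone, the limma adjusted p was 0.0729 for PMP22 and 0.15 for FABP7, and without a level minimum it was 0.0705 for FABP7. NGFR, the low-affinity neurotrophin receptor of immature Schwann cells and of some dermal cells, rose in mesenchyme from 1.98 and 2.42 to 23.9 and 27.9 RPKM, or 11.8-fold (limma, log2 change 3.07, adjusted p = 1.2e-06). PMP22, a myelin protein also made by fibroblasts, rose there from 33.5 and 40.3 to 82.9 and 99.4 RPKM (log2 change 1.28, adjusted p = 7.68e-05). FABP7, a fatty acid-binding protein of Schwann cell precursors, was higher in mesenchyme at both stages (log2 difference 1.69, adjusted p = 3.39e-05, and 2.02, adjusted p = 9.15e-06).

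CDH19, a cadherin of Schwann cell precursors, was 1.81 and 1.78 RPKM in H&H 31 mesenchyme and 2.29 and 2.42 in H&H 35 mesenchyme, and at most 0.186 in epithelium (limma, log2 difference 1.30 at H&H 31, adjusted p = 1.16e-05). It reached 1 RPKM in the 4 mesenchyme libraries alone, so the level minimum favoured this tissue difference, which is a description. S100B, a glial calcium-binding protein, did not exceed 0.0716 RPKM. Other genes of the list were more abundant, with up to 99.4 RPKM for PMP22, 40.4 for FABP7, 23.2 for PRX and 16.6 for CNP. SOX10, a transcription factor of Schwann cells and melanocytes alike, was higher in epithelium (20.5 and 17.3 RPKM at H&H 31, against 8.67 and 9.17 in mesenchyme, log2 difference -1.0, adjusted p = 8.12e-05), the tissue in which the melanocyte genes were high. CDH19, S100B, PRX, CNP and SOX10 were singled out after their values were seen.

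Neurotrophic ligands were counted in 6 tested genes, with 0 higher and 2 lower at H&H 35 in epithelium and 2 higher and 0 lower in mesenchyme, where 34.4% and 39.8% of all genes were called. CNTF, a neurotrophic cytokine, was higher in epithelium at both stages, with limma log2 differences of -2.67 (adjusted p = 2.22e-07) at H&H 31 and -2.26 (adjusted p = 6.53e-07) at H&H 35. It reached 1 RPKM in the 4 epithelium libraries alone, so the level minimum favoured these differences and they are a description. NRTN, a ligand of RET, rose in mesenchyme (limma, log2 change 0.89, adjusted p = 0.00651). NRTN reached 1 RPKM only in H&H 35 mesenchyme, the group where it is high, and its call did not hold with a pseudocount of 0.1 (adjusted p = 0.0549), with the variance of the gene alone (adjusted p = 0.0615) or when H&H 31 mesenchyme I was left out (adjusted p = 0.0538).

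Other cell types that share genes with neurons were checked by their own lists. Of 8 genes of spinal cord progenitors and glia, 7 stayed under 1 RPKM in all libraries, and the remaining one, HES5, was at 2.44 and 1.64 RPKM in H&H 31 mesenchyme and 9.33 and 4.72 RPKM in H&H 35 mesenchyme and was listed at 0 in epithelium. Of 6 genes of Merkel cells, the mechanosensory cells of the epidermis, 4 stayed under 1 RPKM in all libraries. PIEZO2, a mechanically gated channel of sensory neurons and Merkel cells, fell in epithelium (8.79 and 7.54 to 3.94 and 4.63 RPKM, limma, log2 change -0.79, adjusted p = 0.00357) and rose in mesenchyme (4.61 and 4.49 to 11.1 and 15.2 RPKM, log2 change 1.34, adjusted p = 0.00021). The stage changes of PIEZO2 differed between the tissues by 2.13 (adjusted p = 9.96e-05). CHGA, the other tested gene of the Merkel cell list, was not called for stage in either tissue. Its RPKM was 2.64 and 3.12 in H&H 31 epithelium and 2.99 and 2.65 in H&H 35 epithelium. In mesenchyme CHGA was 0.592 and 0.612 RPKM at H&H 31 and 0.640 and 0.536 RPKM at H&H 35.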

How the data were processed

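Total RNA was extracted from separated epithelium and mesenchyme and made into TruSeq libraries, which were read as single ends. The authors trimmed the reads and used Partek Flow for mapping to galGal4. The aligner TopHat2 is named in the submitters' processing notes, and versions, annotation and the handling of shared reads are not given in the sources used here. The deposited table holds RPKM for 14642 genes, with no further scaling stated, and a count of alignments for each library, also made by the authors. Columns of no library were 0.

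Values were analysed as log2(RPKM + 1). Genes that reached 1 RPKM in 2 or more libraries were fitted together in limma 3.58.1 (R 4.3.3) with 4 group means and a variance prior with trend. The p-values were adjusted by Benjamini and Hochberg over 11155 genes and called under 0.05. Every adjusted p in the text comes from a fit by this tool. With the variance of the gene alone, an ordinary t-test on that fit was used, without the variance prior. The fit was tested on simulated data.

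Where whole reads were counted, low RPKM values are multiples of 1 read. Of 1639 low genes tried, 1422 (86.8%) gave whole reads in every library within 0.01 reads, and among the 7 genes the reads were recovered for GAP43, STMN2 and NEFL. They served for intervals only, and a count model was not run because the reads of many genes were not recovered.

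The batch number pairs libraries by label. The correlation of batch deviations was 0.194 between the tissues of H&H 31 and 0.316 between those of H&H 35, whereas between stages it was -0.152 in epithelium and 0.0332 in mesenchyme. The pairs that differ in both tissue and stage gave -0.184 and 0.0396. The study names no block, so the block was an alternative. Others were pseudocounts of 0.1 and 0.5, minimum levels of 0 and 5 RPKM, equal-sum, quantile and median-ratio scaling, only the libraries compared, no variance trend, each gene's own variance and leaving out each library.

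The 7 genes and the gene lists were chosen with earlier results of these data known. From each list, counts are given, and up to 3 called genes with the largest change are named. Listed genes outside the table were not analysed here. Some listed genes are counted but not reported here by name. The files use galGal4, for which no sequence was at hand, so no positions or sequences are given.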

Additional observations from a re-analysis of the deposited data

Results flagged for a closer look

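By the test of the difference itself (interaction term, limma), the change with stage was unequal in epithelium and mesenchyme for 4 of the 6 tested genes, against 42.4% of all tested genes. For GAP43 the difference, mesenchyme minus epithelium, was -2.59 on the log2 scale, but epithelium held 1, 0, 3 and 4 reads, so this restates the fall in mesenchyme. For TUBB3 it was -0.69, with a fall in both tissues. For NEFL it was 2.96, with a fall in epithelium and a spread of 1.30 to 3.98 RPKM between the H&H 35 mesenchyme libraries. For SYT1 it was 1.40, with opposite directions in the tissues.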

How the results depend on the processing

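The total count of called genes among the 6 stayed within 1.5 times under every alternative run, but counts by direction did not. For stage in mesenchyme, 1 higher became 0 with the variance of the gene alone, without either H&H 31 mesenchyme library and without H&H 35 mesenchyme II, and 2 without H&H 35 mesenchyme I. For tissue at H&H 31, 4 lower became 2 with the variance of the gene alone. The difference in stage change went from 2 to 3 higher at most, wherever STMN2 was called. When each library was left out in turn, the number of genes called changed over all genes as well as among the 6. The group of that library was then assumed to vary like the others. The block for the batch brought STMN2 past the threshold for stage in epithelium (adjusted p = 0.0395 from limma) and for the difference in stage change (adjusted p = 0.0401, and adjusted p = 0.0464 with a block in each stage), and changed no other call of the 6 genes. A pseudocount of 0.1 also brought the latter past it (log2 difference 3.53, adjusted p = 0.0325).

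Signs turned only for differences that were not called. ELAVL4's difference in stage change, -0.02, became 0.071 and 0.019 with pseudocounts of 0.1 and 0.5, 0.105 with equal-sum scaling, 0.044 with median-ratio scaling, 0.12 without H&H 31 epithelium II and 0.11 without H&H 35 mesenchyme I (range on leaving out a library -0.165 to 0.12). NEFL's tissue difference at H&H 35, 0.17, became -0.13 with quantile normalization and -0.39 without H&H 35 mesenchyme II (range -0.39 to 0.724). That of STMN2, -0.34, became 0.18 without H&H 35 epithelium II (range -0.858 to 0.18). The cause was not tested.

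Equal-sum scaling moved the median over all genes by 0.103 for tissue at H&H 35 and by 0.145 for the difference in stage change. It moved the share of called genes that were higher from 53.9% to 38.7% for stage in epithelium and from 45.8% to 59.3% for the difference in stage change. Of the named genes of the lists outside the 7, 1833 of 1925 values under alternatives kept their direction and call, 92 lost the call and 0 reversed. With 2 libraries a group and few reads for STMN2 and for GAP43 in epithelium, small differences of these genes were not detectable.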
